A study of Homo sapiens with 4 samples.

Results

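Human chromosome 4 is a long chromosome with few genes, and it was examined here in Hi-C maps of proliferating and senescent IMR90 cells, an established line of human lung fibroblasts. It was chosen by its measured RAS-associated gain of compartment strength and its low gene density, and every bin on it is a member. The bin list holds 943 bins of about 200 kb on chromosome 4 out of 14444 in all, with 249 on the p arm, 693 on the q arm and 1 across the centromere. Of these, 899 bins (207 on p, 692 on q) had a value for at least 50% of their pairs in each of the 4 maps and were kept. The 44 bins that were not kept comprised 38 in the first 10 Mb, 4 more on the p arm, the centromere bin and 1 on the q arm, and the block in the first 10 Mb is described separately.

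All cells of the series samples carried ER:HRAS G12V in a pLNCX2 vector. In this fusion the oncogene stays inactive until 4-hydroxytamoxifen (4OHT) binds. The samples of the series are Grow-shA1 and OIS-shA1, each with 2 replicates, both with the vector pMSCV miR shHMGA1, an shRNA against HMGA1 (shA1). OIS-shA1 cells received 100 nM 4OHT for 6 days, the condition of oncogene-induced senescence (OIS, called RIS in the labels), and Grow-shA1 cells received none. Each condition has 1 deposited map. The maps named Grow and OIS, without shA1, belong to older data of the same laboratory, and no sample label describes their cells. A difference between maps with and without shA1 therefore cannot be told apart from a difference between data sets. The replicates of a condition were pooled in its map, hence no difference below has a replicate error or a test, and every count and mean describes these 4 maps alone. HMGA1 expression was not measured in these files, so the knockdown itself was not checked.

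Chromosomes fold into compartments, in which gene-rich active chromatin (A) contacts other A regions and gene-poor, lamina-associated heterochromatin (B) contacts other B regions. In senescent fibroblasts, heterochromatin is known to leave the nuclear periphery and gather in foci called SAHFs. HMGA1 is a high-mobility group protein whose AT-hooks bind the minor groove of short runs of A and T bases. Base composition is therefore given beside the contacts of each group of bins.

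The sequences below show what the compartment extremes of each arm look like at the base level. Each is the central 200 bases of the bin with the lowest (most B) or highest (most A) compartment score of that arm in the Grow map, plus strand of hg19, with runs of 5 or more A or T bases in capitals. By GENCODE v44 lifted to that build, the p arm B window lay in no annotated gene, and the other 3 lay in introns of the protein-coding genes GABRB1, CCSER1 and PDLIM5.
p arm, lowest score, chr4:45300422-45300621: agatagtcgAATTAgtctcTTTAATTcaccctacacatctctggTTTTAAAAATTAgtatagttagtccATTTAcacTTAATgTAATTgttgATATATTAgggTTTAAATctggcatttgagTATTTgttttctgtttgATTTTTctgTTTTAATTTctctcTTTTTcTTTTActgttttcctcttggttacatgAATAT
p arm, highest score, chr4:47097428-47097627: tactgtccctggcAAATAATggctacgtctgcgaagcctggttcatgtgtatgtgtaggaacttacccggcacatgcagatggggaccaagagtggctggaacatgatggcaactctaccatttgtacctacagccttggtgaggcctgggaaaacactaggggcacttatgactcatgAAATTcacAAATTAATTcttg
q arm, lowest score, chr4:91899432-91899631: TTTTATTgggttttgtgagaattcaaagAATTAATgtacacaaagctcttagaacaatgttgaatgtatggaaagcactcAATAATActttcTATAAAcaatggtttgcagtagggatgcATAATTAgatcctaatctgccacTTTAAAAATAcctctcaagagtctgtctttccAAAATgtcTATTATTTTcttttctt
q arm, highest score, chr4:95501413-95501612: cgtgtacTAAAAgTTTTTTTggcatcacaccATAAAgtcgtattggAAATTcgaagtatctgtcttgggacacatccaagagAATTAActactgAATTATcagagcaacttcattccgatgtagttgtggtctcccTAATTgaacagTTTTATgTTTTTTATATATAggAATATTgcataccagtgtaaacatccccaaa
The p arm windows held 89 bases in such runs at the B extreme and 21 at the A extreme. The q arm windows held 58 at the B extreme and 64 at the A extreme, so a single window does not carry the average of its compartment. Over whole bins, the B bins of the chromosome had 25.2% ± 3.30 (SD over 547 bins) of their bases in these runs. The A bins had 22.2% ± 3.29 (SD over 352 bins). The whole bins around the windows had 28.0% (B extreme) and 26.2% (A extreme) on p, and 28.8% and 25.5% on q. Both A extremes thus lay above the mean of the B bins.

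The values are contact scores already balanced and corrected for distance by the authors, so that 0 is meant to mark the level typical of a distance. A gain in one set of contacts may be a gain relative to others. The level was not the same in all maps. Over the 264529 pairs over 2 Mb apart with a value in all 4 maps, the median of Grow-shA1 minus Grow was -0.0737. A difference between maps can therefore include a shift of the whole map. Chromosome 4 had 387148 listed pairs in Grow, 358796 in Grow-shA1, 359280 in OIS and 342893 in OIS-shA1. Read depths are unknown from these files, and no counting interval can be given. Chromosome 4 spans 191 Mb, the fourth longest of the 22 autosomes and X, and has 761 protein-coding genes, or 3.98 per Mb. Only chromosomes 13 (2.80 per Mb) and 18 (3.41 per Mb) had fewer, and the median of the 23 was 5.74. Its mean GC content over kept bins, 37.7%, was the lowest of the 23, next to 38.5% on chromosome 13. The low gene density was part of the choice of this chromosome and is given as a description. The p arm had 4.76 genes per Mb and the q arm 3.79.

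Compartments were assigned from the sign of the first principal component of the Grow map, turned so that gene-rich bins are positive (A). On the p arm 84 bins were A and 123 B, and on the q arm 268 were A and 424 B, which puts 39.2% of the chromosome in A. The B bins were poor in GC and genes on both arms. Their mean GC content was 37.3% on p and 36.6% on q, against 40.3% and 38.8% in A bins. No protein-coding gene started in 80.5% of p arm B bins and 69.3% of q arm B bins, as against 36.9% and 39.9% of the A bins.

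**Figure D1:**
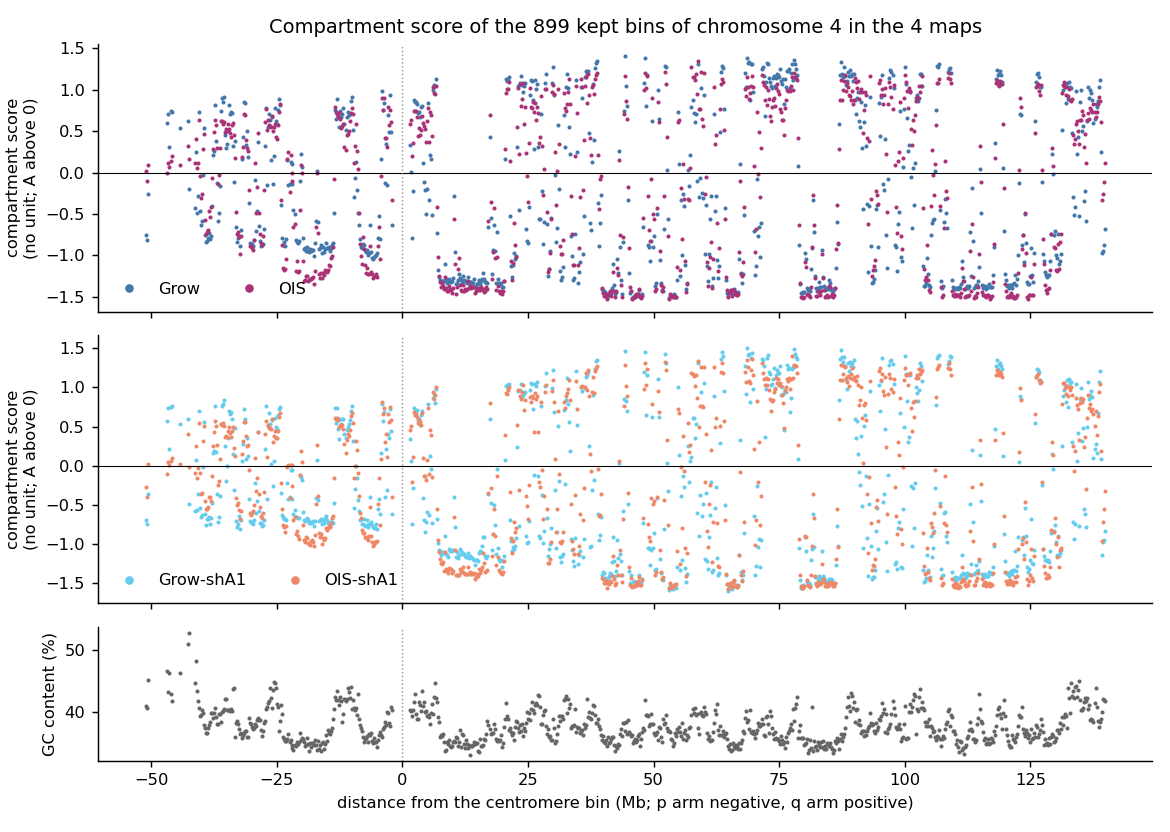
Compartment score (no unit, A above 0) of the 899 kept bins against distance from the centromere bin (Mb, p arm negative), for Grow and OIS above, Grow-shA1 and OIS-shA1 in the middle, with the GC content (%) of each bin below. Each point is 1 bin. The q arm scores run from -1.52 to 1.41 in Grow and the p arm scores from -1.04 to 0.985.

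Compartment strength was taken over distal pairs, those over 2 Mb apart, by averaging the mean contact of A-A pairs with that of B-B pairs and subtracting the mean of A-B pairs. Only pairs with a value in all 4 maps entered, 48778 of 60008 A-A pairs, 117441 of 145668 B-B pairs and 98310 of 189634 A-B pairs. A-B pairs were listed for 83.2% in Grow, 74.8% in Grow-shA1, 74.8% in OIS and 70.0% in OIS-shA1. The A-B mean thus rests on a smaller part of its pairs than the other 2. The strength of chromosome 4 was 0.701 in Grow, 0.666 in Grow-shA1, 0.899 in OIS and 0.820 in OIS-shA1. Both senescent maps were higher than both growing maps. OIS exceeded Grow by 0.198, the highest of the 23 chromosomes, with chromosome 13 next (0.173) and a median of 0.0817. This difference was among the values the chromosome was chosen on and is a description. OIS-shA1 exceeded Grow-shA1, a comparison that shares no map with the first, by 0.154, second to chromosome 13 (0.159), with a median of 0.00928. The contact values of the OIS maps are more spread, and with each value divided by the SD of its map at the same distance the differences were 0.0590 and 0.113, the highest of the 23 in both comparisons on that scale, while the medians were -0.0874 and -0.104. Chromosome 4 was not among the strongest in the growing state, standing 18th in Grow and 20th in Grow-shA1, and was 8th in both OIS maps.

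Both arms were stronger in the senescent maps. The p arm had a strength of 0.980 in Grow, 1.03 in Grow-shA1, 1.22 in OIS and 1.27 in OIS-shA1. The q arm had 0.781, 0.732, 0.999 and 0.917 in the same order. The contacts between the arms had 0.439, 0.412, 0.548 and 0.465. OIS minus Grow thus came to 0.243 on p, 0.218 on q and 0.109 between the arms, and OIS-shA1 minus Grow-shA1 to 0.243, 0.186 and 0.0523. The maps with shA1 were higher than those without it on the p arm, by 0.0491 in OIS and 0.0488 in growing cells. They were lower on the q arm, by 0.0817 and 0.0490.

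Over all distal pairs, the arms reached their gain through different classes of pairs, but the q arm reaches longer distances. At a matched 2 to 5 Mb the signs of OIS minus Grow were the same on both arms. A-A pairs differed by 0.290 on p and 0.295 on q, B-B pairs by -0.243 and -0.105, and A-B pairs by -0.388 and -0.298. On the p arm, A-A pairs had a mean contact of 0.225 in Grow, 0.142 in Grow-shA1, 0.524 in OIS and 0.518 in OIS-shA1 (SD over 3073 pairs, 0.509 to 0.753). Both OIS maps stood above both growing maps. The p arm B-B mean was 1.00, 0.927, 0.841 and 0.937 in the same order, so that it was lower in OIS than in Grow and differed by 0.0102 between the maps with shA1. The p arm A-B mean was -0.366, -0.495, -0.541 and -0.544.

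On the q arm the A-A mean was 0.246 in Grow, 0.205 in Grow-shA1, 0.296 in OIS and 0.324 in OIS-shA1. The q arm B-B mean was 0.628, 0.501, 0.709 and 0.591. It was higher in OIS than in Grow and in OIS-shA1 than in Grow-shA1, but no higher in OIS-shA1 than in Grow. The q arm A-B mean was -0.344, -0.379, -0.496 and -0.460. On both arms, A-B contact was lower in OIS than in Grow and in OIS-shA1 than in Grow-shA1. However, the p arm difference with shA1 (-0.0499) turned to 0.0196 when values were divided by the SD at the same distance. On that scale the A-A and B-B differences of the q arm without shA1 were -0.0283 and -0.0134. Between the arms, B-B pairs had a mean of 0.213 in Grow, 0.109 in Grow-shA1, 0.345 in OIS and 0.156 in OIS-shA1, and OIS stood apart from the other 3 maps.

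**Figure D2:**
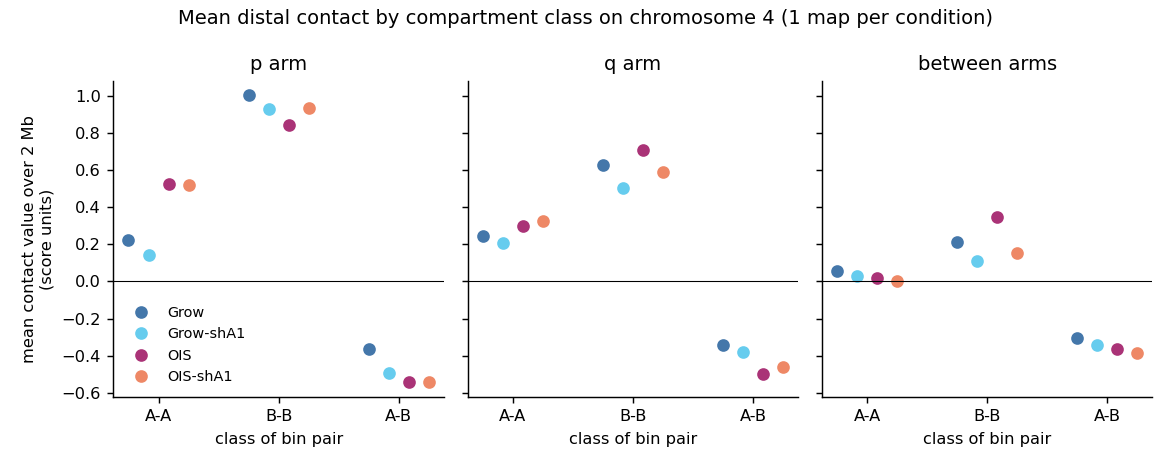
Mean contact value (score units) of pairs over 2 Mb apart by compartment class (A-A, B-B, A-B) within the p arm, within the q arm and between the arms. Each point is 1 map, colours give the 4 conditions, and no error bar is drawn because each condition has 1 map. The p arm A-A means of OIS (0.524) and OIS-shA1 (0.518) lie above those of Grow (0.225) and Grow-shA1 (0.142).

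Single pairs that differed by over 1 score unit show the same split. Over the 22 autosomes and X, 3.81% of distal pairs were higher by over 1 unit in OIS than in Grow and 6.48% were lower. On chromosome 4 these shares were 4.38% and 5.14%, close to that background. They were unequal among classes. Higher pairs made up 6.69% of q arm B-B pairs, 7.36% of B-B pairs between the arms and 0.811% of p arm B-B pairs. On the p arm, 6.83% of A-A pairs were higher and 7.07% of B-B pairs lower. For OIS-shA1 minus Grow-shA1 the background was 4.57% higher and 6.48% lower, and chromosome 4 had 4.97% and 4.57%. Among p arm A-A pairs 13.2% were then higher, and among q arm B-B pairs 7.11%.

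The differences also varied with the distance between bins. Within 2 to 5 Mb the strength was higher in OIS than in Grow by 0.411 on p and 0.393 on q, and by 0.563 and 0.361 with shA1. At 20 to 50 Mb the p arm difference was -0.000424 without shA1 and 0.00774 with it. The q arm still had 0.114 and 0.0890 at that distance, and at 100 to 200 Mb, which only the q arm and the pairs between arms reach, it had 0.318 and 0.227. On q the gain was thus larger at 2 to 5 Mb and at 100 to 200 Mb than at 20 to 50 Mb. From 0.3 to 1 Mb it was 0.0164 without shA1 and 0.0695 with it.

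Within the q arm, the B-B difference turned from negative to positive with distance. From 0.3 to 1 Mb the mean B-B difference of OIS minus Grow was -0.382 on p and -0.349 on q, and from 2 to 5 Mb it was -0.243 and -0.105. On q it was -5.98e-05 at 20 to 50 Mb. It then reached 0.257 for pairs 50 to 100 Mb apart and 0.515 for those 100 to 200 Mb apart. With shA1 the q arm values at the 2 longest bands were 0.242 and 0.330. The p arm is too short for these bands, and its 20 to 50 Mb band had -0.248 without shA1 and -0.145 with it. At matched distances up to 20 Mb, the B-B difference of OIS minus Grow was negative within both arms. The bands with a positive B-B difference within the q arm were those over 50 Mb. Between the arms it was positive in every band, with 0.160 at 10 to 20 Mb and 0.105 at 20 to 50 Mb. Pairs within an arm and between the arms differ in their bins, and what set the sign was not tested.

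**Figure D3:**
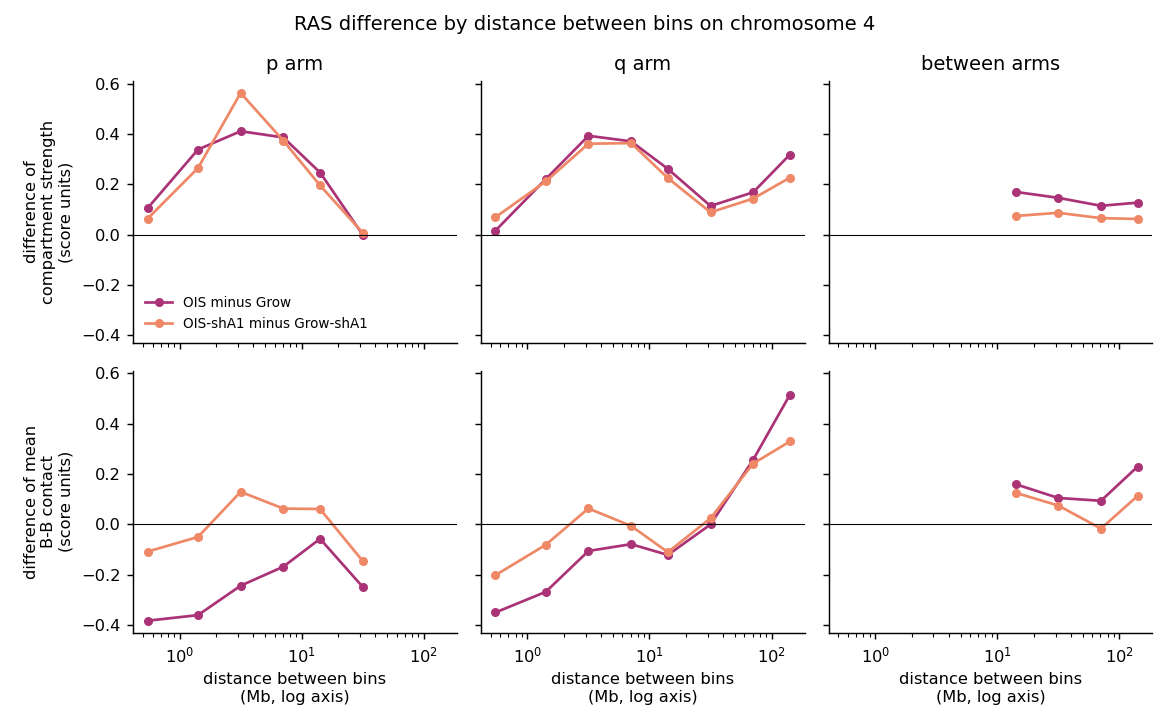
Difference of compartment strength (upper row) and of mean B-B contact (lower row), both in score units, against the distance between bins (Mb, log axis), within the p arm, within the q arm and between the arms. Each point is the mean over 1 distance band for OIS minus Grow or OIS-shA1 minus Grow-shA1. The q arm B-B difference runs from -0.349 below 1 Mb to 0.515 above 100 Mb without shA1.

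Base composition separated the B bins. For each bin the mean contact with distal B bins of the chromosome was taken, and its difference between maps was set against the bin's GC content. Over the 123 p arm B bins, Pearson's r was -0.780 for OIS minus Grow and -0.784 for OIS-shA1 minus Grow-shA1. Over the 424 q arm B bins it was -0.785 and -0.779. These are descriptions with no p, since bins share the maps, their partner bins and their neighbours' composition. The AT-rich B bins were those with higher contact with B in both OIS maps, and chromosome 4 ranked second after chromosome 5 (-0.785) with -0.780 over all its B bins without shA1. With shA1 it had -0.775, after chromosomes 13 (-0.814) and 5 (-0.805). The A bins had r of -0.745 and -0.637 on p, and of -0.483 and -0.294 on q.

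**Figure D4:**
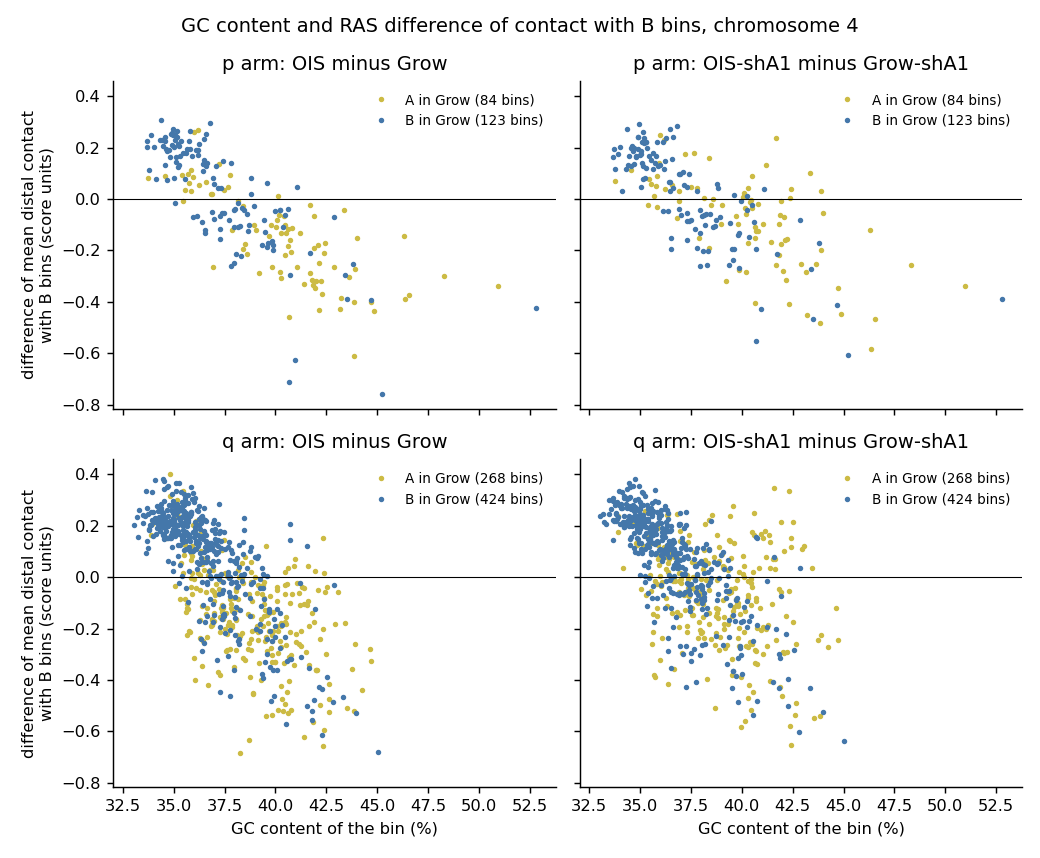
Difference of mean distal contact with B bins (score units) against GC content (%) for the bins of each arm, without shA1 on the left and with shA1 on the right. Each point is 1 kept bin, coloured by its compartment in Grow. The B bins slope downward from low to high GC in all 4 panels, with r from -0.779 to -0.785.

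The B bins were ranked by GC content and cut into 4 groups of 136 or 137 bins each. The lowest GC group held bins of 33.0% to 35.1% GC with 0.139 protein-coding genes per bin, and the highest held bins of 38.0% to 52.8% GC with 0.912. Contact within the lowest GC group averaged 1.05 in Grow, 0.746 in Grow-shA1, 1.65 in OIS and 1.36 in OIS-shA1. Both OIS maps exceeded both growing maps, by 0.596 without shA1 and 0.618 with it. The lowest GC group's contact with the highest was 0.269, 0.299, -0.0537 and 0.0394, lower in each OIS map, by 0.323 and 0.260. Contact within the highest GC group was 0.323, 0.256, 0.345 and 0.239, with differences of 0.0218 and -0.0176. In both OIS maps, and already in Grow, B-B contact was highest within the AT-rich group and lowest between it and the GC-rich group. In Grow-shA1 it was also highest within the AT-rich group, but lowest within the GC-rich group (0.256).

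Without shA1, contact among the p arm's own AT-rich B bins was not higher in OIS. Contact within the lowest GC group on the p arm was 1.31 in Grow, 1.10 in Grow-shA1, 1.22 in OIS and 1.62 in OIS-shA1 (255 pairs), so OIS was lower than Grow by 0.0893 and OIS-shA1 higher than Grow-shA1 by 0.529. The same group on the q arm had 1.27, 0.942, 1.87 and 1.61 (5227 pairs). Between the arms it had 0.563, 0.293, 1.23 and 0.811 (2457 pairs). There the OIS map without shA1 was the highest of the 4.

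Runs of bins of 1 compartment, at least 10 bins long, gave 30 domains, which were 3 A and 4 B domains on p and 8 A and 15 B domains on q. They are named here by arm, compartment and order along the chromosome. The domains were cut on the Grow map, a term of OIS minus Grow, and on no map of OIS-shA1 minus Grow-shA1. The q arm B domains covered 72.8 Mb with 179 genes and the p arm B domains 20.2 Mb with 25.

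The p arm domain pB3, chr4:28805030-37599268, was the longest B domain on p at 44 bins. It held 5 protein-coding genes with their starts in it, PCDH7, ARAP2, DTHD1, NWD2 and C4orf19, and its GC content was 35.3%. Its contact with B bins of its own arm was 1.02 in Grow, 0.976 in Grow-shA1, 0.786 in OIS and 0.939 in OIS-shA1. Its contact with B bins of the q arm was 0.248, 0.0931, 0.565 and 0.253. In OIS pB3 was lower than in Grow within its arm, by 0.236, and higher across the centromere, by 0.318. With shA1 the differences had the same signs and were smaller in size, -0.0368 and 0.159.

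The largest q arm B domain, qB1 at chr4:58003018-71400875, spans 67 bins with 41 genes, among them the UGT2 and casein gene clusters. Its contact with the q arm B bins was 0.487 in Grow, 0.278 in Grow-shA1, 0.773 in OIS and 0.554 in OIS-shA1. OIS was higher than Grow, and OIS-shA1 higher than Grow-shA1. Domain qB13, chr4:160398813-169001317, lies 89.0 Mb from it. The mean contact between qB1 and qB13 was 0.601 in Grow, 0.177 in Grow-shA1, 1.44 in OIS and 0.717 in OIS-shA1. The difference of 0.837 without shA1 was the highest among the 105 pairs of q arm B domains, and with shA1 it was 0.540. For qB1 and qB14, chr4:170798367-176998561, the contact was 0.388, 0.0643, 1.15 and 0.508.

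Contact was higher in OIS than in Grow for 66 of 105 pairs of q arm B domains, 32 of 60 pairs of a p and a q arm B domain and 3 of 6 pairs on p. With shA1 the counts were 67, 28 and 3. The highest difference across the centromere joined pB3 to qB9, chr4:115202032-119206103, with 0.267 in Grow, 0.0706 in Grow-shA1, 0.980 in OIS and 0.523 in OIS-shA1. The lowest on p joined pB3 to pB1, chr4:10603436-13390062, a B domain of 38.6% GC, with 0.905, 0.900, 0.465 and 0.463. pB1 and pB3 were both B in Grow and met less in both OIS maps. All 3 pairs of p arm A domains were higher in both comparisons, by 0.560 to 0.635 without shA1 and 0.517 to 0.729 with it.

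**Figure D5:**
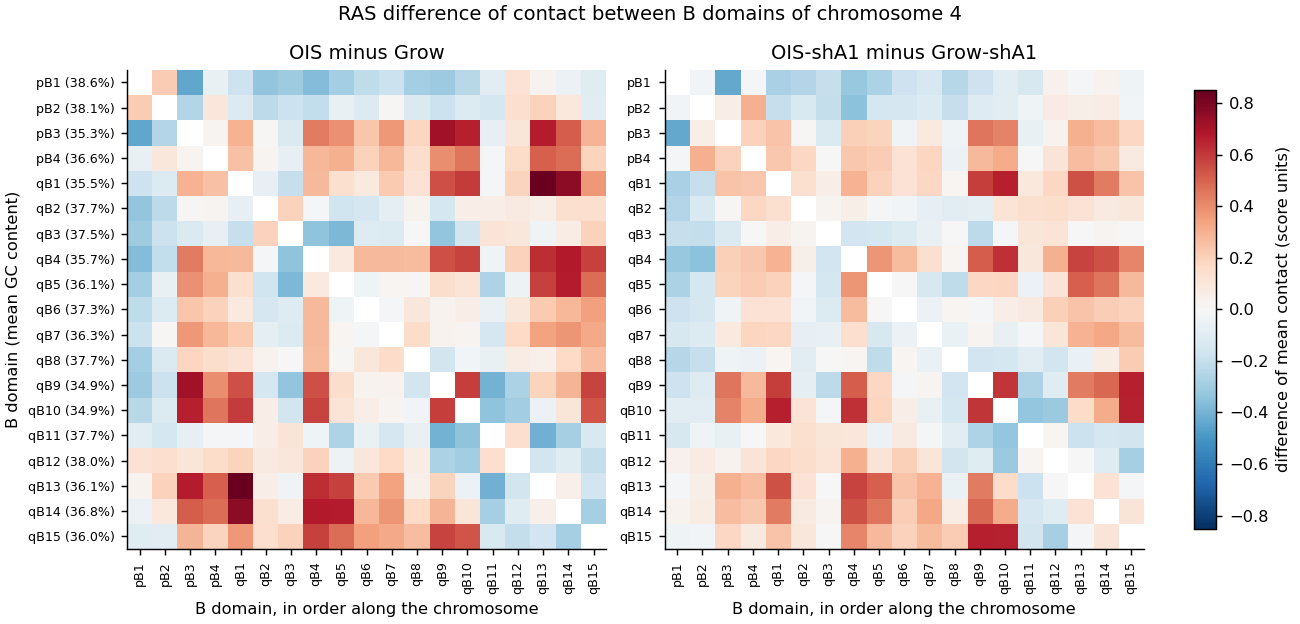
Difference of mean contact (score units, colour) between each pair of the 19 B domains of chromosome 4, in order along the chromosome, for OIS minus Grow on the left and OIS-shA1 minus Grow-shA1 on the right, with mean GC content at the left axis. The pair qB1 and qB13 has 0.837 on the left and 0.540 on the right, and pB1 and pB3 have -0.440 and -0.438.

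The strongest gains were joined in a network. The 1% of distal pairs with the highest difference of OIS minus Grow, 2645 pairs, were taken as edges. Each had a difference of at least 1.39 score units. Bins were then peeled off until every bin left had at least k edges to the others. The innermost core was reached at k = 10 and held 94 bins, 10 on p and 84 on q. All 94 were B in Grow. Their mean GC content was 34.9%, against 36.8% for all B bins, and A or T runs took 28.1% of their bases. They held 9 protein-coding genes, 0.0957 per bin, against 0.461 per B bin. B-B pairs were 78.1% of the edges and 44.4% of the pairs they were drawn from. Edges spanned a median of 77.2 Mb, against 38.6 Mb for those pairs.

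The core was spread over 10 of the 19 B domains. It took in 27 of the 67 bins of qB1, 22 of 43 in qB13, 13 of 31 in qB14, 8 of 26 in qB4, 5 of 20 in qB9, 9 of 44 in pB3 and 7 of 40 in qB10, and 1 bin in each of the other 3. Of the genes listed below, SPOCK3, FSTL5 and MARCHF1 in qB13, GALNTL6 in qB14 and EPHA5 in qB1 start in core bins. The core was selected on OIS minus Grow, so only the maps with shA1 give its contact anew. Among q arm core bins that contact was 0.975 in Grow-shA1 and 1.66 in OIS-shA1 (3012 pairs), a difference of 0.684, as against 0.0267 among the other q arm B bins. Between the arms the core differed by 0.578 (0.457 and 1.03) and the other B bins by 0.00499. The lowest GC group of B bins, in the core or not, differed nearly as much with shA1, by 0.669 on q and 0.518 between the arms. On the p arm, over 27 pairs, the core differed by 0.170, which turned to -0.163 with values divided by the SD at the same distance.

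The network of OIS-shA1 minus Grow-shA1 had its core at k = 8 with 110 bins, 7 on p, and all were B. The 64 bins in both cores were 68.1% of the first and 58.2% of the second. B-B pairs made up 64.0% of its edges and pairs between the arms 15.1%, against 78.1% and 27.6% without shA1. Of all distal pairs 24.5% lay between the arms, so such edges were above that share without shA1 and below it with shA1. In qB10, chr4:129998266-138003015, 24 of 40 bins were in the core with shA1 and 7 without, and in qB13 12 and 22.

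Some bins crossed from B to A. Over all chromosomes 8.9% of kept bins were B in Grow and A in OIS, and on chromosome 4 there were 82 (9.12%), 20 on p and 62 on q. Of OIS-shA1 minus Grow-shA1 the background was 7.83%, and chromosome 4 had 64 (7.12%), 17 and 47. Neither share stood far from its background. The 2 sets had 43 bins in common, 52.4% of the first and 67.2% of the second. All 82 bins had a higher score in OIS-shA1 than in Grow-shA1, as did 270 of the 547 B bins (49.4%). Their mean GC content was 39.8%, and 61 of them were in the highest GC group of B bins and 1 in the lowest. Bins that went from A to B numbered 7 (0.779%) and, with shA1, 3 (0.334%), where the shares over all chromosomes were 0.86% and 1.37%.

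The longest B to A run without shA1 was chr4:55399362-56197784, 4 bins with KIT and KDR, receptors for stem cell factor and VEGF. Its mean score was -0.254 in Grow, -0.712 in Grow-shA1, 0.521 in OIS and -0.0925 in OIS-shA1, and the mean was above 0 only in OIS. One of its bins, chr4:56001235-56197784, was also A in OIS-shA1, with a score of 0.0721. Runs of 3 bins held STOX2 and ENPP6 (chr4:184600256-185199986) and, with others, TLR3, an endosomal receptor of double-stranded RNA, and the clotting genes KLKB1 and F11 (chr4:186802217-187401914). The longest run with shA1 was 5 bins at chr4:152201697-153199421 with SH3D19, FHIP1A and GATB, whose mean score was -0.191 in Grow, -0.515 in Grow-shA1, 0.539 in OIS and 0.687 in OIS-shA1.

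Named genes are described by the bin that holds their start and that bin's mean distal contact with B bins. For reference, the chromosome had a median difference of 0.00289 over its 899 kept bins for OIS minus Grow, with 453 higher and 446 lower, and of 0.0377 with shA1, with 502 higher and 397 lower. The compartments differed, and the counts of each list are to be read against its own. Contact with B was lower in OIS than in Grow in 79.8% of the 352 A bins and higher in 69.8% of the 547 B bins, and with shA1 the shares were 63.4% and 68.2%. Gene expression is not in these files. Lists of neighbouring genes share bins, and the bins of a list are not independent.

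The chemokine and interleukin genes of chromosome 4, which include SASP factors, started in 7 bins, 6 of them A. Contact with B bins was lower in OIS than in Grow in all 7 (median difference -0.316) and in 6 of 7 with shA1 (median -0.186), the direction of most A bins. The bin of CXCL8, which encodes the neutrophil attractant IL-8, had a contact of -0.899 in Grow, -0.971 in Grow-shA1, -1.06 in OIS and -1.03 in OIS-shA1. The bin of CXCL2 had -0.519, -0.560, -0.870 and -0.778. Both were far from B in every map, and OIS was the lowest of the 4. The bin of IL2, the T cell growth factor, had -0.234, -0.166, -0.551 and -0.489. The difference with shA1 at CXCL8, -0.0572, turned to 0.0153 on the scale divided by the SD.

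Growth factor and receptor genes started in 17 kept bins, and contact with B was lower in OIS in 15 and higher in 2, with 10 and 7 with shA1. Of these bins 10 were A, with 9 lower, and 7 were B, with 6 lower. LEF1, counted in this list though it is a transcription factor of the Wnt pathway, had the lowest difference of the list. Its bin was at -0.278 in Grow, -0.321 in Grow-shA1, -0.813 in OIS and -0.558 in OIS-shA1. The bin of PDGFRA, a PDGF receptor of fibroblasts, was at -0.927, -0.921, -1.11 and -0.885, and that of FGF2, a fibroblast growth factor, at -0.965, -0.967, -1.15 and -1.03. At KIT the values were -0.208, 0.00842, -0.559 and -0.195, and OIS again stood lowest. EPHA5, an ephrin receptor of neurons, went the other way, with 0.537, 0.255, 0.778 and 0.553 in a core bin of 33.5% GC.

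Cell cycle genes started in 14 kept bins, 11 of them A, with lower contact with B in 10 and higher in 4 in both comparisons. The A bins among them were lower in 9 of 11 without shA1 and 8 of 11 with it, close to the shares of all A bins. The bin of CENPU, a kinetochore protein, had -0.102 in Grow, -0.0194 in Grow-shA1, -0.611 in OIS and -0.566 in OIS-shA1. That of CCNA2, cyclin A2, had -0.449, -0.488, -0.690 and -0.626. CENPE, a kinetochore motor, lay in a B bin with 0.434, 0.232, 0.536 and 0.441. Of 10 kept bins of chromatin genes, 7 of them A, 8 were lower in OIS and 3 with shA1. The bin of ING2, a reader of H3K4 methylation, was lower in both, with 0.0339, 0.123, -0.489 and -0.413, and that of TET2, which oxidises 5-methylcytosine, had 0.000157, -0.181, 0.0294 and -0.0984.

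Genes of innate immunity and mineralised matrix were also lower. All 4 bins of innate receptors, 2 in A and 2 in B, were lower in OIS than in Grow, and 2 of 4 with shA1. TLR3 had 0.237 in Grow, 0.300 in Grow-shA1, -0.264 in OIS and -0.107 in OIS-shA1, positive in both growing maps and negative in both OIS maps. All 3 bins of mineralised matrix genes, 1 in A and 2 in B, were lower in both comparisons, among them SPP1, osteopontin, with -0.0368, -0.00303, -0.367 and -0.269.

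Some tissue-specific families, mostly in B bins, had higher contact with B, whereas the bins of the albumin, alcohol dehydrogenase and fibrinogen genes differed by -0.0858 to 0.118 for OIS minus Grow. All 6 bins of UDP glucuronosyltransferases, all in B, enzymes of hepatic conjugation, had higher contact with B in both OIS maps, with medians of 0.221 and 0.167. The bin of UGT2B4 had 0.633 in Grow, 0.413 in Grow-shA1, 0.890 in OIS and 0.573 in OIS-shA1. The 4 bins of casein and saliva protein genes, 3 of them B, were higher in OIS in all 4 and in 3 of 4 with shA1. CSN1S1, a milk casein, had 0.735, 0.462, 0.951 and 0.676. The 3 bins of GABA-A receptor subunits on the p arm, 2 of them B, were higher in both, and GABRG1 had 0.494, 0.289, 0.801 and 0.559, the largest positive difference of OIS minus Grow among p arm bins.

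Delta protocadherins, which are neuronal adhesion molecules, started in 3 bins, and all were higher in both comparisons. The bin of PCDH10 had 0.993 in Grow, 0.879 in Grow-shA1, 1.21 in OIS and 1.10 in OIS-shA1. PCDH7 had 0.178, 0.138, 0.317 and 0.180. PCDH18 lay in A, with -0.563, -0.714, -0.385 and -0.472, and was also higher. In each of these 3 bins, the OIS map was above the Grow map and OIS-shA1 above Grow-shA1.

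Genes longer than 500 kb started in 22 kept bins, and these were spread on both sides, 10 higher and 12 lower without shA1 and 11 each with it. The 7 in the bins of lowest GC content, from FSTL5 (34.2%) to CCSER1 (36.1%), were all in B and all higher in both comparisons. SPOCK3, a proteoglycan, had 0.994 in Grow, 0.729 in Grow-shA1, 1.20 in OIS and 0.941 in OIS-shA1. LRBA, which starts in an A bin of 40.0% GC, had -0.0840, -0.0591, -0.415 and -0.641, the lowest in OIS-shA1.

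The bins at the extremes were of several kinds. The highest difference on q was in an A bin with no gene at chr4:126803374-126997733, of 34.8% GC, with -0.721 in Grow, -0.529 in Grow-shA1, -0.320 in OIS and -0.404 in OIS-shA1. The lowest on p were the first 3 bins of the chromosome, with the zinc finger genes ZNF595, ZNF718, ZNF141, ZNF732 and ZNF721. The second of them was at 0.463, 0.531, -0.249 and -0.0203. The lowest on q was at chr4:188599855-188799813, which holds no gene, with -0.00298, 0.0950, -0.686 and -0.299. Its GC content was 38.3%.

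The maps with shA1 were set against those without it, with the data set as a second difference. In OIS-shA1 minus OIS, 4.11% of distal pairs over all chromosomes were higher by over 1 unit and 5.14% lower, and chromosome 4 had 3.48% and 4.86%. B-B contact was lower with shA1 between the arms by 0.189 and on q by 0.118, and higher on p by 0.0963. Contact within the lowest GC group was lower by 0.284 in OIS, and by 0.306 in growing cells. In growing cells the A-A, B-B and A-B means of the chromosome were all lower with shA1, with differences of -0.0394, -0.118 and -0.0440. Bins that were A in OIS and B in OIS-shA1 were 3.09% over all chromosomes and numbered 41 (4.56%) on chromosome 4. In Grow-shA1 minus Grow, 1.33% of pairs were higher and 2.4% lower over all chromosomes, against 0.924% and 2.33% here, and bins from A to B were 1.69% and 21 (2.34%).

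Both RAS differences were compared over blocks of 5 by 5 bins, since they share no map. The slope of the difference with shA1 on that without it was 0.695 over 10791 blocks, with 0.792 within p, 0.718 within q and 0.592 between the arms. The sign was the same in 77.2% of blocks. Over single pairs the slope was 0.363 and over blocks of 10 by 10 bins 0.718, and the part of noise in these values was not tested.

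The block that was not kept in the first 10 Mb, chr4:600398-9801593, holds 38 bins with 101 protein-coding genes, among them FGFR3, TACC3, NSD2 and SLBP, and has a mean GC content of 50.7%. Its distal pairs were listed for 60.1% in Grow, 56.0% in Grow-shA1, 37.2% in OIS and 36.2% in OIS-shA1. Fewer were listed in both OIS maps. Pairs with p arm B bins were listed for 81.5%, 79.7%, 48.2% and 44.6%, and pairs with p arm A bins for 96.0%, 94.6%, 84.5% and 83.3%. Over the pairs listed in all 4 maps, contact with p arm B bins was -0.475, -0.365, -0.802 and -0.841. Whether an unlisted pair had too few reads or a low value cannot be told apart, and the most GC-rich and gene-rich stretch of the chromosome is therefore outside the counts above.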

How the data were processed

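In-nucleus Hi-C of Grow-shA1 and OIS-shA1 cells (2 replicates each) was mapped to hg19 with HiC-Pro, per the submitters' processing notes and the study's methods, with HindIII as the enzyme. The authors pooled replicates, balanced the maps by ICE and corrected them for distance. The deposited values are signed scores per bin pair, 1 file per condition, whose log base and offset are not given in the sources used here, so differences are in score units and no folds are given. Maps without shA1 (Grow, OIS) belong to older data of the same laboratory. An unlisted pair has no value.

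Analyses used Python 3.11.15 with numpy 2.4.6, pandas 2.3.3 and scipy 1.17.1. A bin was kept with a value for at least 50% of its pairs in each map. Class means and strengths used pairs over 2 Mb apart with a value in all 4 maps. A bin mean needed 10 pairs, and domains were runs of at least 10 bins of 1 compartment, bridging up to 2 others. GC content came from the hg19 sequence and genes from GENCODE v44 lifted to GRCh37. With 1 map per condition no test was possible. Programs were checked on simulated maps. The genes named were those of fixed family lists, the 3 bins with the highest and lowest differences on each arm and the score extremes. Genes of domain pB3 and of the longest B to A runs, and those of the first 10 Mb, were named after their values were seen. The chromosome, its arms and the gene lists were chosen with earlier results of these data known, and the 4 GC groups and 3 sets of alternatives after the data were seen. One result among the named genes is not reported here.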

Additional observations from a re-analysis of the deposited data

How the results depend on the processing

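Each condition is 1 map, so replicate spread could not be set against any value below. No paired analysis was possible because the 2 replicates of each condition were pooled in its map and no test was made. Read depth is not given by the files, and what it limits could not be measured.

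The differences of strength kept their sign on both arms in all 4 comparisons under all 6 alternatives. For OIS minus Grow (0.243 on p, 0.218 on q), dividing values by the SD at the same distance gave 0.0625 and 0.0661, unlisted pairs as 0 gave 0.152 and 0.133, distances over 5 Mb gave 0.207 and 0.207, compartments from each map gave 0.311 and 0.299, a component per arm gave 0.230 and 0.217, and every bin with any value gave 0.171 and 0.217. For OIS-shA1 minus Grow-shA1 (0.243, 0.186) the values in that order were 0.131 and 0.152, 0.162 and 0.135, 0.181 and 0.174, 0.275 and 0.199, 0.218 and 0.180, and 0.134 and 0.184. For OIS-shA1 minus OIS (0.0491, -0.0817) they were 0.106 and -0.0136, 0.0405 and -0.0923, 0.028 and -0.0841, 0.028 and -0.125, 0.0516 and -0.087, and 0.0262 and -0.0815. For Grow-shA1 minus Grow (0.0488, -0.0490) they were 0.0373 and -0.0995, 0.0306 and -0.0945, 0.0536 and -0.0512, 0.0641 and -0.0253, 0.0637 and -0.0495, and 0.0632 and -0.0492. The B to A counts (82 and 64) were 85 and 69 with a component per arm and 86 and 67 with every bin. The largest k (10 and 8) was 16 and 13 with 2% of pairs as edges and 20 and 17 with values averaged over 3 by 3 pairs. The slope over chromosome 4 (0.695) was 0.363 over single pairs and 0.718 over blocks of 10 by 10 bins.

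Some differences of class means turned sign, among them those of q arm A-A (0.0505) and B-B (0.0805) pairs for OIS minus Grow, and the cause was not tested. With values divided by the SD at the same distance, the p arm gave 0.0288 (A-A, OIS-shA1 minus OIS), -0.0652 (B-B, OIS-shA1 minus Grow-shA1) and 0.0196 (A-B, OIS-shA1 minus Grow-shA1), and the q arm -0.0283 (A-A, OIS minus Grow) and -0.0134 (B-B, OIS minus Grow). With maps centred at the same distance, the p arm gave 0.0174 (A-A) and 0.0158 (A-B) for OIS-shA1 minus OIS and 0.0337 (A-B) for OIS-shA1 minus Grow-shA1. The q arm then gave 0.0151 (A-A) and 0.0182 (A-B) for Grow-shA1 minus Grow, and pairs between the arms gave 0.0284 (A-A) and 0.0262 (A-B) for OIS-shA1 minus OIS and 0.0261 (A-A) and 0.0186 (A-B) for Grow-shA1 minus Grow. With unlisted pairs as 0, A-B means gave 0.0288 and 0.00506 on p for OIS-shA1 minus Grow-shA1 and minus OIS, 0.0166 on q for Grow-shA1 minus Grow, and 0.00213, 0.0554 and 0.0412 between the arms for OIS-shA1 minus Grow-shA1, OIS-shA1 minus OIS and Grow-shA1 minus Grow, and the A-A mean between the arms gave 0.000604 for OIS-shA1 minus OIS. Over 5 Mb, the p arm gave -0.0084 (B-B) and 0.00316 (A-B) for OIS-shA1 minus Grow-shA1 and 0.00067 (A-B) for OIS-shA1 minus OIS.

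Contact with B bins turned sign in a few domains and gene bins. Over 5 Mb these were pA3 (0.0349), qA5 (0.0165) and PLK4 (0.0377) with shA1 and TLR1 (0.0463) without. Divided by the SD, they were qA4 (0.107), qA5 (0.0213), VEGFC (0.132), AREG (0.0453), TLR1 (0.245), ADH1A (-0.0534) and qB13 with its own arm (-0.016) for OIS minus Grow, and pA3 (0.0375), qA4 (0.0545), qA5 (0.0409), PLK4 (0.0729), FGF2 (0.0178), CXCL8 (0.0153) and the p arm core pairs (-0.163) for OIS-shA1 minus Grow-shA1. The relation of GC content to contact with B over B bins lay between -0.730 and -0.785 on both arms in all of these settings, which were added after the data were seen.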

Other observations

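The bins of the albumin, alcohol dehydrogenase and fibrinogen genes differed by -0.0858 to 0.118 for OIS minus Grow. With shA1 they differed by -0.0651 to 0.0464. The bin of ALB, serum albumin, had a contact with B bins of 0.0302 in Grow, 0.0650 in Grow-shA1, -0.0555 in OIS and -6.32e-05 in OIS-shA1, while that of GC, the vitamin D binding protein of the same family, had 0.345, 0.225, 0.463 and 0.272. The 2 bins of alcohol dehydrogenases differed by -0.0440 and 0.0199 for OIS minus Grow. The bin with the fibrinogen chains, FGA among them, had 0.796, 0.645, 0.783 and 0.613, and was lower in each map with shA1 than in the map without it. SMARCA5, a chromatin remodeller, lay in a B bin with 0.532, 0.451, 0.284 and 0.372, a larger difference of -0.248 for OIS minus Grow. Its OIS value was the lowest of the 4, and its compartment score was -0.894, -1.02, -0.320 and -0.729, B in all 4 maps.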
